A study of Mus musculus with 11 samples.

Results

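Checkpoint inhibition in mice with melanoma was described from 5 hippocampal sections, 3 labelled MELANOMA ICI and 2 labelled MELANOMA. A segmented object was taken as a cell where its volume reached 100 µm3 and 10 or more transcripts were assigned to it. This gave 111514 cells out of 375660 objects, and 232117 cells were found by the same rule in all 11 sections of the series. All 5 sections came from male wild-type C57Bl/6 mice aged 10 to 12 weeks. Each mouse had been injected into the skin on both sides with 500000 D4M-3A.UV2 cells, a melanoma line that grows in this strain, and the tumours had engrafted for 1 week. MELANOMA mice then received isotype-matched antibodies. MELANOMA ICI mice received anti-CTLA-4 at 1 mg a dose, 3 doses a week, with anti-PD-1 at 200 µg a dose, 2 doses a week, for 3 weeks. CONTROL and CONTROL ICI mice, used only for comparison, carried no tumour. They received the isotype antibodies and the same doses of anti-CTLA-4 and anti-PD-1 respectively, and the labels give the 3 weeks of treatment only for MELANOMA ICI. The labels do not tie sections to animals, so spreads between sections may in part be technical, and p-values measure only that spread.

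CTLA-4 and PD-1 are receptors that hold T cells in check, and antibodies against them release T cells against a tumour. The same release can inflame healthy organs, the brain among them. MERFISH reads single RNA molecules in place through barcoded probes imaged over several rounds, so the transcripts assigned to a cell depend on its RNA, on the probes and on how much of it the outline encloses. DAPI stains DNA and so marks nuclei, and PolyT labels the poly(A) tails of messenger RNA. The hippocampus holds pyramidal and granule neurons in curved, closely packed layers, between zones made mostly of neurites and glia. The tables used here give 1 transcript total for each object, so the tissue label could not be checked against marker genes, and no gene or cell type is named.

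The sections belonged to 3 imaging runs, read from the first 4 digits of the object identifiers. MELANOMA 1 and MELANOMA ICI 2 shared run 1, and MELANOMA 2 and MELANOMA ICI 3 shared run 2. MELANOMA ICI 1 lay in run 3 with no MELANOMA section, so its difference from that group and the difference between runs cannot be told apart. The sections held 16194 (MELANOMA ICI 2) to 34722 cells (MELANOMA ICI 1) and covered 10.1 (MELANOMA ICI 3) to 21.2 mm2 (MELANOMA ICI 1). The labels do not say which part of the brain around the hippocampus a section includes.

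An object was not the same thing in every run. Height was computed here as volume over the area of the bounding box. A low height can thus mean a thin object or one that fills little of its box. Median height was 7.37 µm over the cells of MELANOMA ICI 1. It was 2.15 µm in MELANOMA 1, 2.12 µm in MELANOMA ICI 2, 2.26 µm in MELANOMA 2 and 1.34 µm in MELANOMA ICI 3. In the sections of runs 1 and 2, 60.2% (MELANOMA 2) to 75.2% (MELANOMA ICI 3) of cells had the centre of another object within 3 µm in the plane of the section, against 0.00288% in MELANOMA ICI 1. Objects thus lay above one another in runs 1 and 2 and almost never in run 3. Whether the objects of runs 1 and 2 are whole cells or parts of cells could not be settled, as segmentation settings were not given. A cell here is only an object that passed the filter, and per-cell values and densities carry this limit.

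**Figure D1:**
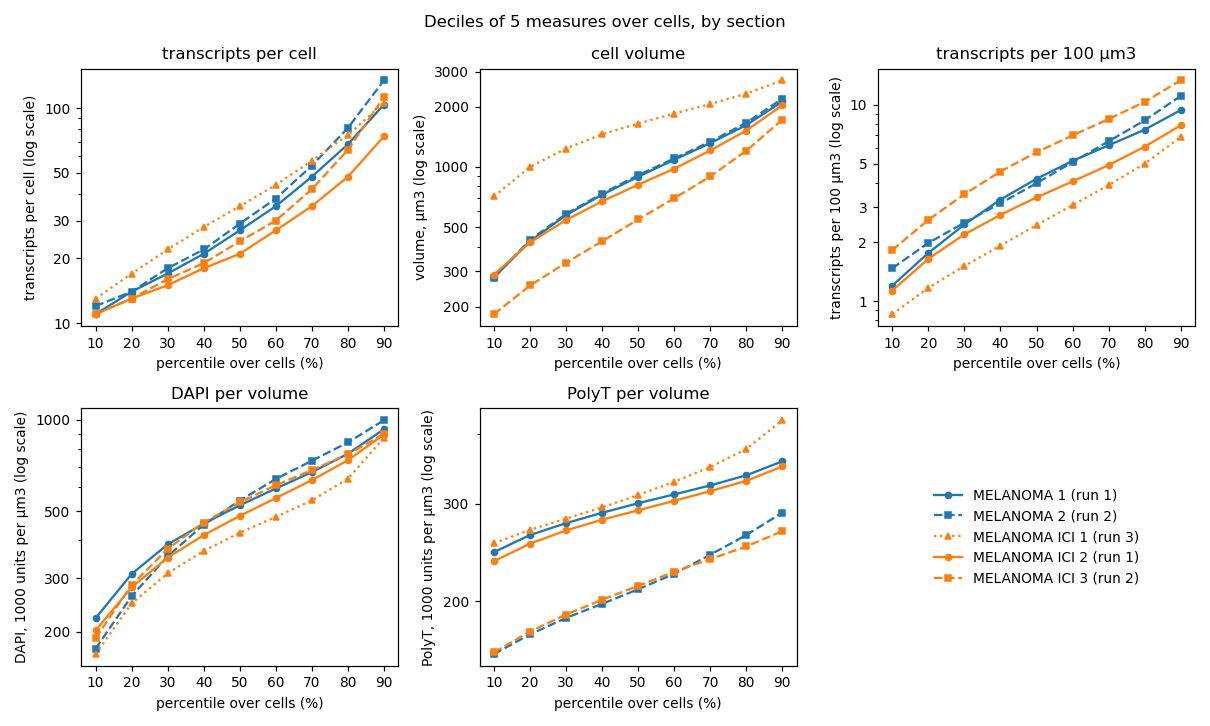
The 10th to 90th percentile over cells (x axis, %) of transcripts per cell, cell volume, transcripts per 100 µm3, and DAPI and PolyT per volume (y axes, log scale), with 1 line per section, MELANOMA in blue and MELANOMA ICI in orange. MELANOMA ICI 1 of run 3 (dotted) has the largest volumes at every decile, and MELANOMA ICI 3 the smallest.

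Cells of MELANOMA ICI sections held fewer transcripts than those of the MELANOMA section of their own run, at every decile but the 10th of run 1, where the values were equal. The median number of transcripts per cell was 27 in MELANOMA 1 and 21 in MELANOMA ICI 2, which shared run 1. In run 2 it was 29 in MELANOMA 2 and 24 in MELANOMA ICI 3. MELANOMA ICI 1 had 35, the highest of the 5, so the groups overlapped. The ratio within run 1 was 1 at the 10th percentile, 0.778 at the median and 0.712 at the 90th percentile. In run 2 it was 0.917, 0.828 and 0.837. It was lowest at the 80th percentile in run 1 (0.706) and at the 70th in run 2 (0.778). The filter at 10 transcripts holds the lowest percentiles of all sections near 10, so the ratios near the low end are held close to 1 by the filter.

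Transcript-rich cells were fewer in both MELANOMA ICI sections that had a run partner. The 90th percentile was 104 transcripts in MELANOMA 1 and 135 in MELANOMA 2, against 106, 74 and 113 in MELANOMA ICI 1, 2 and 3. MELANOMA ICI 2 was lowest, and the groups overlapped through the other sections. Cells with at least 100 transcripts made up 10.9% of cells in MELANOMA 1 and 5.27% in MELANOMA ICI 2, and 15.7% in MELANOMA 2 and 12.0% in MELANOMA ICI 3. In MELANOMA ICI 1 their share was 11.7%. The tenth of cells with the most transcripts held 30.4% (MELANOMA ICI 1) to 42.4% (MELANOMA ICI 3) of all transcripts in cells. Over all 5 sections the 90th percentile averaged 97.7 ± 20.8 in MELANOMA ICI (SD, n = 3) and 119.5 ± 21.9 in MELANOMA (SD, n = 2). The difference was -0.30 on the log2 scale (two-sided exact permutation p = 0.6), and for the median it was -0.10 (exact permutation p = 0.8).

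The exact permutation test cannot pass 0.05 with these groups. The 5 sections allow 10 arrangements and so no p below 0.1, and within runs the smallest possible p is 0.5. Of the 45 section percentiles compared (9 deciles of 5 measures), 0 (0%) had an adjusted p under 0.05 by exact permutation with Benjamini-Hochberg adjustment, and 0 an unadjusted one. The groups did not overlap in 2 of the 45 (4.44%), both of DAPI. Groups stand apart in any arrangement that makes the 2 MELANOMA sections both highest or both lowest. Such arrangements are a larger share of the 10 than 4.44%. The MELANOMA ICI section was lower than its run partner in 43 of 45 percentiles in run 1 and in 26 of 45 in run 2. The signs of the 2 runs were opposite in 20. Deciles of 1 section move together, so these are counts over linked values of 4 sections.

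**Figure D2:**
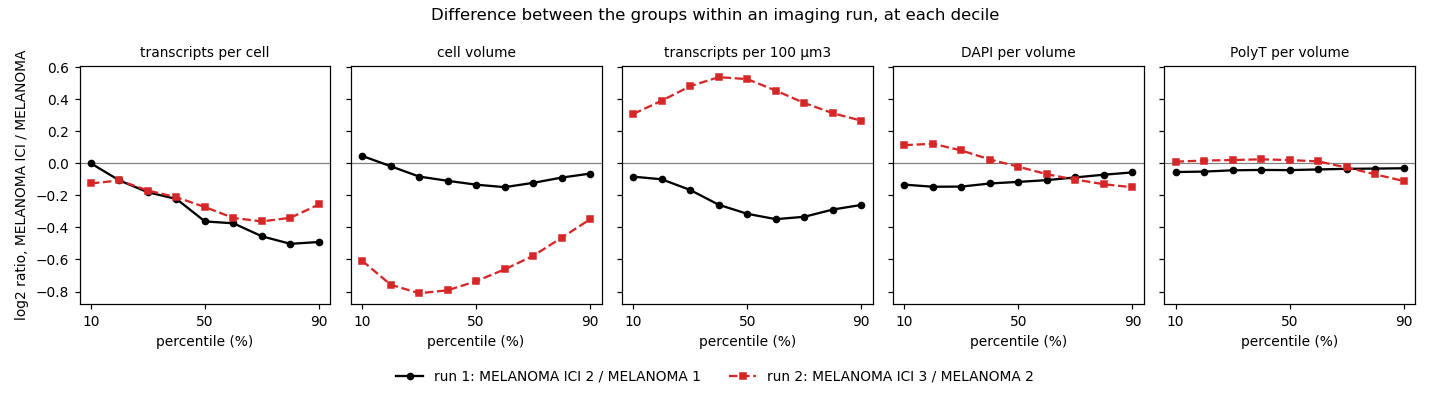
Log2 ratio of MELANOMA ICI to MELANOMA (y axis) at each percentile over cells (x axis, %) for the 5 measures, within run 1 (black circles, MELANOMA ICI 2 over MELANOMA 1) and run 2 (red squares, MELANOMA ICI 3 over MELANOMA 2), with no error bars as each point compares 1 section with 1. Transcripts per cell lie at or below 0 in both runs, and transcripts per 100 µm3 lie below 0 in run 1 and above it in run 2.

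Cell volume differed less between the partners of run 1 than between those of run 2. Its median was 894 µm3 in MELANOMA 1 and 815 µm3 in MELANOMA ICI 2, a ratio of 0.912. It was 909.8 µm3 in MELANOMA 2 and 546 µm3 in MELANOMA ICI 3, a ratio of 0.601. MELANOMA ICI 1 had 1649.6 µm3. The run 2 ratio was lowest at the 30th percentile (0.57) and was 0.785 at the 90th percentile. In run 1 the ratio lay between 0.902 and 1.03, and it exceeded 1 only at the 10th percentile, where MELANOMA 1 had 280.4 and MELANOMA ICI 2 had 289.6 µm3. There the 2 runs had opposite signs. Over all 5 sections the median averaged 1004 ± 575 µm3 in MELANOMA ICI (n = 3) and 902 ± 10.9 µm3 in MELANOMA (n = 2), and the log2 difference was 0.00066 (exact permutation p = 1).

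The smaller median volume of MELANOMA ICI 3 went with a lower median height, which is computed from volume, and with nearly the same median bounding box. The bounding box of its cells had a median of 374 µm2, against 391 µm2 in MELANOMA 2, a ratio of 0.959, while the ratio of median heights was 0.590. In run 1 these ratios were 0.955 and 0.985. Among cells of like height the bounding boxes of run 2 did differ. In cells under 1 µm, from 1 to 2 µm and from 2 to 3 µm the bounding box of MELANOMA ICI 3 was 0.757, 0.559 and 0.734 times that of MELANOMA 2, and above 3 µm the ratio was 0.995 to 1.15. Cells less than 1 µm high made up 38.7% of cells in MELANOMA ICI 3 and 22.7% in MELANOMA 2, 19.95% in MELANOMA ICI 2 and 16.3% in MELANOMA 1. Among the 34722 cells of MELANOMA ICI 1 there were 0, which allows a share of up to 0.00864% (3 counts of the total, for counting error only). Cells of at least 3 µm made up 23.6% (MELANOMA ICI 3) to 39.96% (MELANOMA 2) of the cells of the 4 sections in runs 1 and 2.

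With cells of like height set side by side, the 2 runs went opposite ways in transcripts. In run 1 MELANOMA ICI 2 had fewer transcripts than MELANOMA 1 in 5 of 6 height classes and as many, 15, in cells under 1 µm. Cells 3 to 4 µm high had a median of 42 transcripts in MELANOMA 1 and 30 in MELANOMA ICI 2. In run 2 MELANOMA ICI 3 had more than MELANOMA 2 in 4 of 6 classes and as many in the 2 lowest, 17 under 1 µm and 23 from 1 to 2 µm. Cells 3 to 4 µm high had 43 in MELANOMA 2 and 52.5 in MELANOMA ICI 3, and those of 5 µm or more had 72 and 105.5. Weighted by the pooled shares of the height classes, the ratio of MELANOMA ICI to MELANOMA was 0.818 in run 1 and 1.11 in run 2. Without the matching the ratios of medians were 0.778 and 0.828. The lower median count per cell in run 2 was thus seen over all cells and in none of the height classes. MELANOMA ICI 3 also had more cells of low height, a value computed from volume and the bounding box. Whether height accounts for the lower count was not tested. These height classes were chosen after the data were examined.

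**Figure D3:**
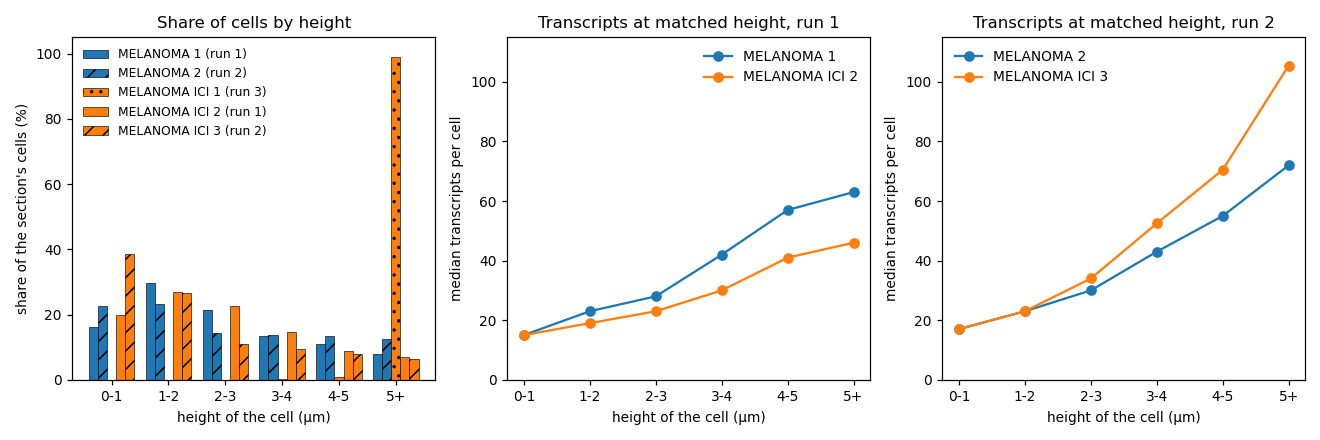
Left, the share of each section's cells (y axis, %, from 0) in 6 classes of height (x axis, µm), with MELANOMA in blue and MELANOMA ICI in orange. Middle and right, the median transcripts per cell (y axis) in each class in run 1 and run 2. The MELANOMA ICI section is at or below the MELANOMA section in run 1 and at or above it in run 2.

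Matching on volume gave the same directions. In run 1 MELANOMA ICI 2 was lower in 5 of 5 volume classes, by a factor of 0.702 to 0.929. In run 2 MELANOMA ICI 3 was higher in 5 of 5, by a factor of 1.07 to 1.43. The class of 1000 to 2000 µm3 had the widest gap in both runs. There MELANOMA 1 and MELANOMA 2 both had a median of 47 transcripts, MELANOMA ICI 2 had 33 and MELANOMA ICI 3 had 67. MELANOMA ICI 1 of run 3 also had 33 in this class. Weighted over the classes, the ratio was 0.815 in run 1 and 1.20 in run 2.

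Transcripts per unit of volume differed between the groups in opposite directions in the 2 runs at all 9 deciles. The median was 4.20 transcripts per 100 µm3 in MELANOMA 1 and 3.38 in MELANOMA ICI 2, and 3.99 in MELANOMA 2 and 5.74 in MELANOMA ICI 3. MELANOMA ICI 1 had 2.44, the lowest of the 5. The ratio within run 1 ran from 0.785 at the 60th percentile to 0.944 at the 10th. In run 2 it ran from 1.20 at the 90th to 1.45 at the 40th. Both gaps were widest in the middle of the distribution and narrower at the ends. The 90th percentile was 9.42 in MELANOMA 1, 11.1 in MELANOMA 2, and 6.86, 7.87 and 13.4 in MELANOMA ICI 1, 2 and 3. The MELANOMA ICI sections thus lay on both sides of the MELANOMA sections. Their median averaged 3.85 ± 1.70 (n = 3) against 4.09 ± 0.151 (n = 2), a log2 difference of -0.18 (exact permutation p = 0.7).

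Summing the transcripts assigned to all objects by area, in place of counting them per cell, gave a ratio near 1 in run 2 and one further from 1 in run 1. Transcripts outside every outline are not in these sums. Assigned transcripts of all objects came to 89472 per mm2 in MELANOMA 1 and 57481 in MELANOMA ICI 2, a ratio of 0.642. They came to 106764 per mm2 in MELANOMA 2 and 113129 in MELANOMA ICI 3, a ratio of 1.06. MELANOMA ICI 1 had 83729. Squares of 25 µm were counted only where they held an object, and tissue without objects was left out. In these squares the median was 39.5 transcripts in MELANOMA 1 and 23 in MELANOMA ICI 2. It was 48 in MELANOMA 2, 50 in MELANOMA ICI 3 and 42 in MELANOMA ICI 1. Over the 9 deciles of these squares the ratio was 0.5 to 0.644 in run 1 and 1 to 1.20 in run 2. The total volume of objects per mm2 differed little between partners, with ratios of 1.03 in run 1 and 0.954 in run 2. Over all 5 sections transcripts per mm2 had a log2 difference of -0.26 (exact permutation p = 0.6).

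**Figure D4:**
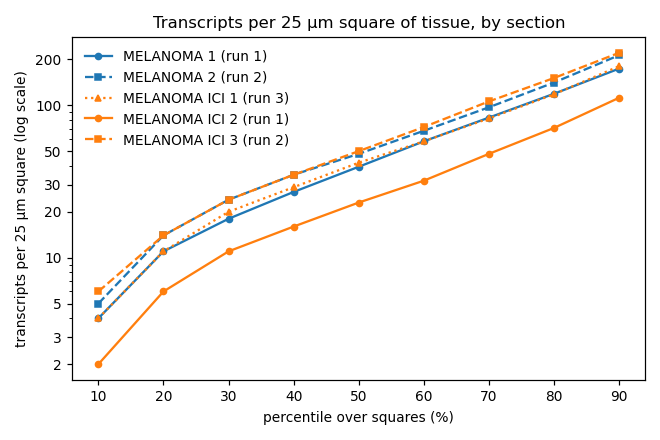
The 10th to 90th percentile over squares (x axis, %) of assigned transcripts per 25 µm square (y axis, log scale), with 1 line per section, MELANOMA in blue and MELANOMA ICI in orange. Only squares that held an object were counted. MELANOMA ICI 2 lies below MELANOMA 1 at every decile, while MELANOMA ICI 3 and MELANOMA 2 nearly coincide.

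The low counts of MELANOMA ICI 2 were also seen among objects that the filter removed. Objects without any transcript made up 37.3% of its objects, against 26.2% in MELANOMA 1. In run 2 the shares were 20.1% in MELANOMA ICI 3 and 23.9% in MELANOMA 2, and MELANOMA ICI 1 had 5.20%. Of objects of at least 100 µm3, 23.4% had 10 transcripts or more in MELANOMA ICI 2 and 39.4% in MELANOMA 1. The shares were 40.4% in MELANOMA ICI 3 and 45.6% in MELANOMA 2. The median over all objects of at least 100 µm3 was 3 transcripts in MELANOMA ICI 2 against 6 in MELANOMA 1, and 7 in MELANOMA ICI 3 against 8 in MELANOMA 2. The filter thus kept a smaller share of MELANOMA ICI 2, and the ratio of 0.778 between cells of run 1 was closer to 1 than that between objects before the filter.

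DAPI per volume, given in 1000 intensity units per µm3, was the only one of the 5 measures in which the groups stood apart. They did so at 2 adjoining deciles, which move together. The 90th percentile was 930.4 in MELANOMA 1 and 996 in MELANOMA 2. It was 872, 895 and 898 in MELANOMA ICI 1, 2 and 3, all below both MELANOMA sections. The means were 888 ± 14.4 (n = 3) and 963 ± 46.7 (n = 2), a ratio of 0.922 and a log2 difference of -0.12. The exact permutation p was 0.1, the smallest possible, and 1 after adjustment over 45 percentiles. The ratio was 0.961 in run 1 and 0.902 in run 2. With the stricter filter (200 µm3 and 50 transcripts) the log2 difference was -0.083 (exact permutation p = 0.5). At the 80th percentile the groups did not overlap either, but MELANOMA ICI 3 at 769 lay just below MELANOMA 1 at 772 (exact permutation p = 0.2, adjusted 1). In run 3, which held MELANOMA ICI 1, the tumour-free sections had a 90th percentile of 858 (CONTROL 3) and 1375 (CONTROL ICI 3). The value of MELANOMA ICI 1 was thus near that of the isotype section of its run. A stain's brightness can differ between runs, and with 1 section of each group in a run it can also differ between sections of a run, which was not tested.

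Below its median DAPI per volume parted by run. In run 1 MELANOMA ICI 2 was lower at all 9 deciles, with ratios of 0.904 to 0.961. In run 2 MELANOMA ICI 3 was higher than MELANOMA 2 from the 10th to the 40th percentile, with ratios of up to 1.09, and lower from the 50th to the 90th. The 10th percentile was 176 in MELANOMA 2 and 190.4 in MELANOMA ICI 3. The range of DAPI was thus narrower in MELANOMA ICI 3, whose 90th percentile was 4.72 times its 10th, against 5.66 times in MELANOMA 2. In run 1 this multiple was 4.42 in MELANOMA ICI 2 and 4.19 in MELANOMA 1, and in MELANOMA ICI 1 it was 5.16. Height also went with DAPI. In MELANOMA 2 its median was 268 in cells under 1 µm and 785 in those of 5 µm or more, and in MELANOMA ICI 3 it was 339 and 679.

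Among cells at least 3 µm high, a choice made after the data were examined, median DAPI per volume was lower in the MELANOMA ICI section of both runs. It was 674 in MELANOMA 1 and 634 in MELANOMA ICI 2, and 741 in MELANOMA 2 and 689 in MELANOMA ICI 3. These ratios, 0.941 and 0.929, were nearly alike. At the 10th percentile of the same cells the ratios were 0.853 in run 1 and 1.03 in run 2. In cells under 1 µm, from 1 to 2 µm and from 2 to 3 µm, ratios of median DAPI were 0.819, 1.02 and 0.950 in run 1. In run 2 they were 1.26, 1.31 and 1.11. Transcripts in cells at least 3 µm high were not alike in the 2 runs. Their median was 52 in MELANOMA 1 and 36 in MELANOMA ICI 2, a ratio of 0.692, and 54 in MELANOMA 2 and 72 in MELANOMA ICI 3, a ratio of 1.33. Median volumes had ratios of 0.989 and 1.06.

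PolyT per volume, in the same unit, differed little between run partners. Its median was 300.3 in MELANOMA 1 and 292 in MELANOMA ICI 2, a ratio of 0.971. It was 210.1 in MELANOMA 2 and 213 in MELANOMA ICI 3, a ratio of 1.01, and MELANOMA ICI 1 had 311. The runs stood apart by more than the partners did. In run 1 the ratio was 0.963 to 0.979 over the 9 deciles. In run 2 it was 1.01 to 1.02 from the 10th to the 60th percentile, opposite in sign to run 1, and it was 0.926 at the 90th. Here the values were 289 for MELANOMA 2 and 267 for MELANOMA ICI 3. Within run 1 the ratio for PolyT per volume was nearer to 1 than that for transcripts per volume, 0.971 against 0.804 at the median. Over all 5 sections the log2 difference of the PolyT median was 0.095 (exact permutation p = 0.7).

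The map of the sections shows where transcript-rich cells lay. A curved band of squares with medians above 60 stood out by eye in MELANOMA ICI 1. Adjoining squares above 60 also lay in MELANOMA 2, among them squares of 75, 102 and 76.5. A broad rim with high medians was seen by eye in MELANOMA 1 and MELANOMA ICI 1. In MELANOMA 2 it ran along only part of the edge, and squares of the left edge had 15 to 43. The rim was paler in MELANOMA ICI 2 and MELANOMA ICI 3. Over squares of 100 µm with at least 10 cells, the 90th percentile of the square's median was 48 transcripts in MELANOMA 1 and 36 in MELANOMA ICI 2. It was 54 in MELANOMA 2, 41 in MELANOMA ICI 3 and 67 in MELANOMA ICI 1. The 10th percentile was 16 and 15 in run 1, and 18 and 15 in run 2. Median height of squares had a 10th percentile of 1.10 µm in MELANOMA 2 and 0.538 µm in MELANOMA ICI 3, and a 90th of 3.75 and 2.15 µm. Height was thus lower in MELANOMA ICI 3 at both ends of the range. The sections also differ in outline and in the tissue they include, and treatment and section position cannot be told apart here.

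**Figure D5:**
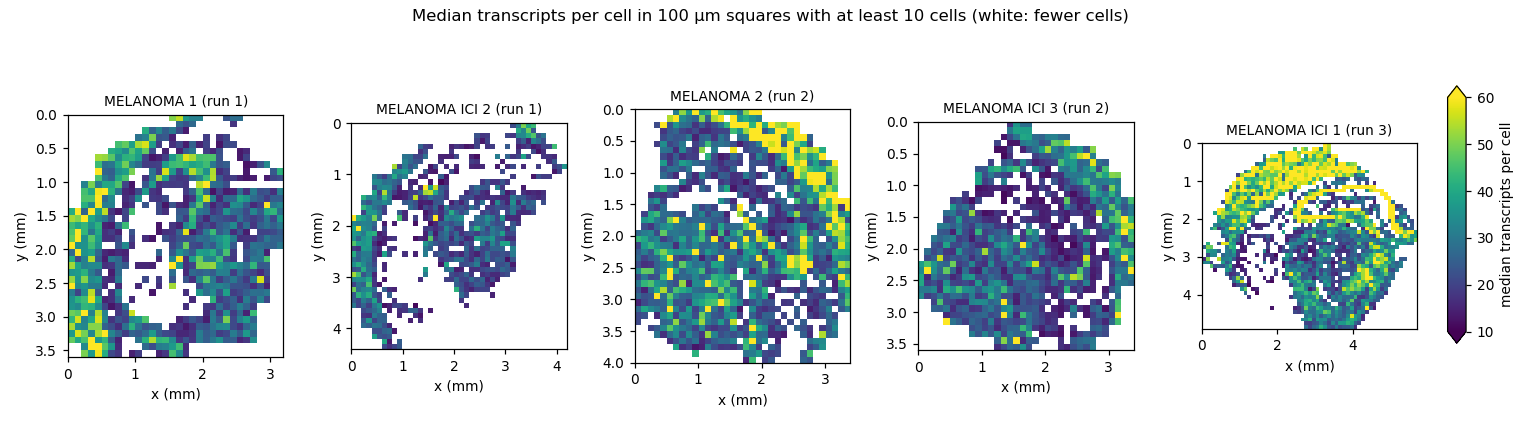
Position in the section (x and y, mm, from the section's own corner) of 100 µm squares with at least 10 cells, coloured by the median transcripts per cell from 10 to 60, with run 1 and run 2 partners side by side and MELANOMA ICI 1 last. White squares held fewer than 10 cells, and the outlines and the tissue included differ between sections.

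The number and shape of cells passed no test between the groups. Density was taken over the 100 µm squares that held at least 1 cell, a smaller area than that of all objects. It was 1806 cells per mm2 in MELANOMA 1 and 1346 in MELANOMA ICI 2, and 1796 in MELANOMA 2 and 2132 in MELANOMA ICI 3, so the runs had opposite signs. MELANOMA ICI 1 had 1782. All objects together were denser in the MELANOMA ICI section of both runs, by factors of 1.36 in run 1 and 1.37 in run 2, while MELANOMA ICI 1 had 2184 per mm2, the fewest of the 5. Median anisotropy, the long over the short axis, had ratios of 0.994 and 1.00. The deposited solidity score had ratios of 0.979 and 0.591, almost those of height, and across cells it ranked nearly as height did in runs 1 and 2 (Spearman's rho 0.988 to 0.993 over 16194 to 21716 cells of a section, a description). Filtered DAPI as a percent of raw DAPI had medians of 0.788% and 0.799% in MELANOMA and 0.725%, 0.775% and 0.763% in MELANOMA ICI 1, 2 and 3. The groups did not overlap (exact permutation p = 0.2, adjusted 1). The same held for the median bounding box, lower in MELANOMA ICI (exact permutation p = 0.5, adjusted 1), so 2 of 18 such measures stood apart (11.1%). This share too is smaller than the share of arrangements that set the groups apart.

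Set beside tumour-free mice, the treatment difference in mice with melanoma passed no test. For the median of transcripts per cell the log2 difference within runs was -0.57 between CONTROL ICI and CONTROL and -0.32 between MELANOMA ICI and MELANOMA. For transcripts per mm2 the within-run differences were -1.17 without and -0.28 with a tumour. The tumour-free values average runs 1 and 3, and the run 3 pair gave -1.71. In run 1, the only run with both contrasts, transcripts per mm2 differed by -0.63 without and -0.64 with a tumour, and the median of transcripts per cell by -0.19 and -0.36. In CONTROL ICI 2 of this run, 21.9% of 100 µm squares were nearly silent (under 10% of the section's median transcripts), against 3.62% in CONTROL ICI 1. Their transcripts per mm2 were 43167 and 43676. Over all 11 sections the difference between the effects with and without a tumour was 1.08 for transcripts per mm2 (exact permutation p = 0.205). It was 0.65 for the 90th percentile of transcripts per cell (exact permutation p = 0.26). For the 90th percentile of DAPI per volume it was -0.27 (exact permutation p = 0.21). Within run 1 this percentile differed by -0.099 without and -0.057 with a tumour, and the run 3 pair without a tumour gave 0.68. Over 17 such differences between effects the adjusted p by exact permutation was 0.871 or higher. The null of this test is no treatment effect with or without a tumour.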

How the data were processed

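Per the labels' protocols, 10 µm sections were hybridised, embedded in gel and imaged by MERFISH. Software, segmentation and probe panel: not given in the sources used here. Per the file headers, each deposited table gives raw transcript counts per object, DAPI and PolyT intensity summed over the object, anisotropy as a ratio, and solidity and perimeter-to-area as scores of undefined scale. Volume and position have no stated unit and were taken as µm3 and µm. Stains were divided by volume and by 1000.

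Each section gave 9 deciles of 5 measures. Differences of mean log2 values between the groups were tested by exact permutation of sections, two-sided (p is the share of arrangements with an absolute difference at least as large), with Benjamini-Hochberg adjustment over 45 values. Differences within runs are values of 1 section against 1, except without a tumour in run 1. There the mean of CONTROL ICI 1 and CONTROL ICI 2 was set against CONTROL 1. Cells were never replicates. Sections held 731163 to 1773374 assigned transcripts. Named values are the 10th, 50th and 90th percentile, and deciles without overlap or with opposite signs in the runs. Height and grid comparisons were added after the data were examined. The measures and members were chosen with earlier results of these data known. The scripts (Python 3.11.15, NumPy 2.4.6, pandas 2.3.3) were tested on simulated data. Alternatives were other filters, run as a stratum, each section left out, nearly silent squares left out and replicate numbers as a block. Numbers do not pair the sections, since same-numbered sections lie in different runs.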

Additional observations from a re-analysis of the deposited data

Results flagged for a closer look

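The 90th percentile of PolyT per volume differed in direction between mice with and without a tumour when MELANOMA ICI or CONTROL ICI sections were compared with the isotype sections of their run. With a tumour it was lower in runs 1 and 2 (-0.031 and -0.11 on the log2 scale). Without one it was higher in runs 1 and 3 (0.046 and 0.46), so the effects within runs differed by -0.32. Only run 1 held both contrasts, -0.031 with and 0.046 without a tumour, so the difference of -0.32 also sets run 2 against run 3. This within-run difference was not tested, and without runs it was -0.21 (exact permutation p = 0.515, adjusted 0.89 over 17 values). The larger value without a tumour rests on CONTROL 3 and CONTROL ICI 3 of run 3. Groups of 2 or 3 sections were not screened for outlying sections.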

How the results depend on the processing

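The exact permutation test could pass no threshold with 5 sections, so directions and sizes are compared. The 90th percentile of DAPI, where the groups stood apart (exact permutation p = 0.1), had an exact permutation p of 0.5 with the stricter filter (-0.083), and of 0.2 without any filter (-0.15) and in cells at least 3 µm high (-0.19). Leaving out MELANOMA ICI 1 and keeping runs apart are the same comparison for the mean, and they turned 11 of 17 log2 differences. Kept within runs, the 10th percentile of transcripts per cell was -0.063, the 10th and 50th of volume -0.28 and -0.43, and the 10th, 50th and 90th of transcripts per volume 0.11, 0.11 and 0.0032. Those of PolyT were -0.022, -0.011 and -0.071, cells per section -0.11 and the share of objects that are cells -0.54. Medians of transcripts without the filter on transcripts were 0.20 higher in MELANOMA ICI, and without any filter 0.47 higher. Only MELANOMA ICI 1 of run 3 lay above the MELANOMA sections there. Without the filter on transcripts it had 24, MELANOMA ICI 2 and 3 had 3 and 7, and MELANOMA 1 and 2 had 6 and 8. Without any filter these medians were 24, 1 and 3 against 3 and 3. The stricter filter turned the 10th percentiles of transcripts (-0.040) and of DAPI (0.013), and cells at least 3 µm high those of transcripts (-0.057) and the 90th of volume (0.096). Cells per mm2 gave -0.064 where cells per section gave 0.20. The cause of these turns was not tested. With 1 section left out, the 10th, 50th and 90th percentile ranged from -0.063 to 0.080, -0.32 to 0.051 and -0.49 to -0.11 for transcripts, from -0.28 to 0.70, -0.43 to 0.36 and -0.21 to 0.12 for volume, from -0.43 to 0.11, -0.51 to 0.11 and -0.48 to 0.0032 for transcripts per volume, from -0.25 to 0.085, -0.23 to -0.069 and -0.17 to -0.067 for DAPI and from -0.20 to 0.41, -0.16 to 0.35 and -0.071 to 0.26 for PolyT. Cells per section ranged from -0.11 to 0.44 and their share from -0.54 to 0.65. Leaving out nearly silent squares turned none of 15 directions. With replicate numbers as a block, which the runs show not to pair the sections, the 90th percentile of volume was 0.12, and the other 16 results kept their direction. Percentile 10 of transcripts and of their density had no log2 value without the filter, being 0. The mean over volume classes and runs of matched transcripts was 0.013 (-0.030 with pooled volume deciles and -0.050 with height classes), since the runs had opposite signs.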
